A study of Mus musculus with 20 samples.

Results

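Natural killer (NK) cells were set against monocytes. The comparison uses the 2 arrays titled NK cells and the 2 titled Monocyte, 4 of the 20 arrays of a series on 10 sorted mouse blood cell types. Both types came from wild-type female C57Bl/6 mice of 12 to 14 weeks, which the series text also describes as CD45.1. Each array held material pooled from 4 samples of 25000 to 50000 cells sorted by flow cytometry, and the polyadenylated RNA was amplified through 2 rounds of in vitro transcription before labelling. The sources used here do not give the organ or the surface markers of the sort. The labels call the 2 arrays of a type biological replicates, so the p-values rest on differences between pools, and single mice were not measured. The series describes the expression profiles of blood cells. The comparison asks which genes separate 2 innate cell types of different lineage and which they both carry at a high level.

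NK cells are lymphocytes that need no rearranged antigen receptor. They read the surface of other cells through inhibitory and activating receptors, kill by releasing perforin and granzymes, and secrete interferon gamma. Monocytes are circulating phagocytes of the myeloid lineage, which sense microbes through Toll-like and C-type lectin receptors, release interleukin 1 and other mediators, and can become macrophages or dendritic cells in tissue. Both types use receptors that have no signalling part of their own and borrow it from small adapters such as Tyrobp (DAP12) and Fcer1g (the common gamma chain of Fc receptors).

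Values are deposited log2 expression values, 1 probe set per gene, so that a difference of 1 is a 2-fold change. A value is a reading of its own probe set, so levels of different genes compare only roughly. The marker sums, the common limits on a level and the ranking of list members by level carry that uncertainty. Values under about 5 lie near the background of these arrays, and a difference against such a value is only as reliable as that background. Pairs of values give array 1 and then array 2 of a type. Differences are NK cells minus monocytes and are followed by ± and their standard error (SE). Adjusted p-values come from limma over all genes tested, and every cell type has n = 2 arrays. In bulk samples, fewer cells of a type and less RNA per cell cannot be told apart.

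Of 10 NK cell markers, 10 and 9 lay above 5 in the NK arrays, against 2 and 2 in the monocyte arrays, where only Klrd1 (7.36 and 7.43) and Gzma (9.23 and 8.89) did. The monocyte label held less evenly. Of 10 monocyte markers with a probe set, 5 and 5 lay above 5 in the NK arrays, against 7 and 8 in the monocyte arrays. Csf1r, the receptor of the monocyte growth factor CSF-1, Cd14, a lipopolysaccharide co-receptor, Spi1, which encodes the myeloid transcription factor PU.1, and Lyz2, lysozyme, were high in the monocyte arrays. Of these, Csf1r (12.59 and 12.89), Spi1 (9.15 and 9.82) and Lyz2 (16.08 and 16.23) were high in the granulocyte arrays too, while Cd14 was not (2.12 and 1.82). Ms4a6c, of the same list, read 7.31 and 7.81 in the NK arrays, against 4.73 and 6.94 in the monocyte arrays. F13a1 read 3.24 and 4.70 in the monocyte arrays, against 9.15 and 6.61 in the granulocyte arrays. Ccr2, a chemokine receptor of classical monocytes, read 9.37 and 9.63 in the NK arrays, against 5.11 and 6.07 in the monocyte arrays. Fcgr1, the high-affinity IgG receptor, lay at the background in all 4 (3.03 and 3.04 in NK cells, against 3.08 and 3.08 in monocytes). Granulocyte markers were carried by the monocyte arrays. Of 9 such markers 1 and 1 lay above 5 in the NK arrays, against 9 and 8 in the monocyte arrays. Their values summed to 26.2 and 26.0 in the NK arrays and to 87.6 and 93.8 in the monocyte arrays, beside 124.6 and 125.4 in the granulocyte arrays. Within that list Lcn2 (lipocalin 2) read 14.13 and 14.85 in the monocyte arrays and Mmp9 (gelatinase B) 15.52 and 15.43. Camp (cathelicidin) read 5.09 and 3.83 in the monocyte arrays, against 15.20 and 15.97 in the granulocyte arrays. Ngp read 11.77 and 11.30 and Ltf (lactoferrin) 7.72 and 8.97 in the monocyte arrays, between the NK and granulocyte levels. Mmp8, a collagenase, read 7.11 and 11.48 in the monocyte arrays, and Csf3r, the G-CSF receptor, read 13.71 and 13.50, against 11.44 and 11.30 in the granulocyte arrays. The part of granulocytes in what the monocyte arrays show was not tested. None of 9 erythroid markers exceeded 5 in the 4 arrays. Of 10 T cell markers 2 (Cd3d and Cd28) did so in each NK array and none in the monocyte arrays.

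The 2 arrays of a type were not equally close. Over 9810 genes, a correlation across genes that are not independent of each other, the NK arrays correlated at 0.985 and the monocyte arrays at 0.945. The NK arrays differed by over 2-fold in 599 genes, against 2415 in the monocyte arrays. NK array 1 stood above NK array 2 in genes of macrophages, which were chosen here for that difference. Mpeg1, a pore-forming protein of phagocytes, read 8.99 and 3.77 in the NK arrays, Lyz2 read 9.28 and 4.29 and Csf1r 11.42 and 7.30. Vcam1, an adhesion molecule of tissue macrophages and stroma, read 10.69 and 6.20, and Slc40a1, the iron exporter ferroportin, 10.18 and 5.73. The resident macrophage marker list summed to 39.5 in NK array 1 and 28.7 in NK array 2, against 26.5 and 25.2 in the monocyte arrays. Of its 8 markers 3 and 2 lay above 5 in the NK arrays, against 1 each in the monocyte arrays, while C1qa and C1qc lay at the background (at most 1.71) in all 4. Of the 599 genes, NK array 1 was the higher in 452 and array 2 in 147. Of the 2415 genes, monocyte array 1 was the higher in 737 and array 2 in 1678. Monocyte array 1 stood above monocyte array 2 in immediate-early and inflammatory genes, chosen here for that difference. The immediate-early factors Fosb and Egr3 read 11.61 and 2.97 and 10.34 and 2.82 in monocytes, the chemokine Cxcl3 13.23 and 5.66, the prostaglandin synthase Ptgs2 11.33 and 4.25, and Tnf 10.59 and 6.09. Monocyte array 2 was the higher one for Bcl2, an inhibitor of cell death (3.27 and 10.64), Cd48 (4.81 and 10.36) and Cybb, the catalytic subunit of the phagocyte oxidase (5.59 and 11.03). Without monocyte array 1 the differences of Fosb (-0.93), Cxcl3 (-1.96) and Bcl2 (2.54) were no longer called. What made the arrays of a type differ was not tested.

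**Figure D1:**
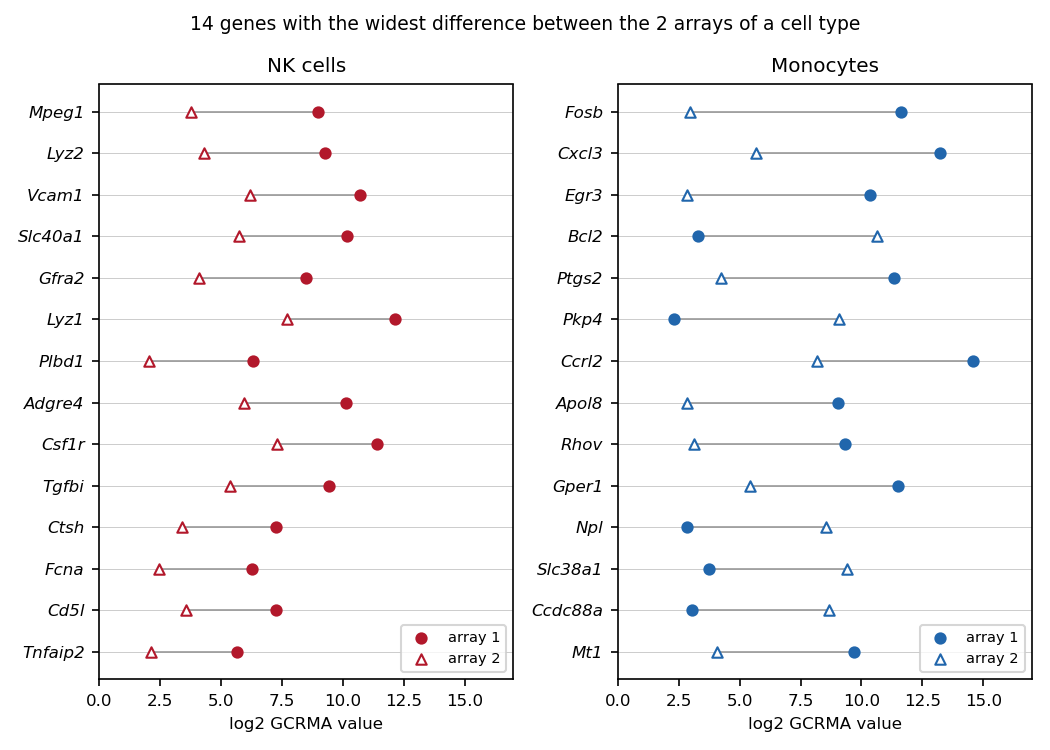
The 14 genes that differed most between the 2 arrays of NK cells (left) and of monocytes (right), with the log2 value on the x axis, circles for array 1 and triangles for array 2. In NK cells array 1 is the higher for all 14 genes, macrophage genes such as Mpeg1 and Csf1r among them, while in monocytes array 1 is higher for Fosb, Egr3 and Ptgs2 and array 2 for Bcl2.

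NK cells and monocytes differed in a large part of the genes measured. Of the 9810 genes tested, 3420 (34.9%) were higher in NK cells and 1515 (15.4%) lower, at an adjusted p under 0.05 and a difference of at least 1. The median difference over all genes tested was 0.39 in favour of NK cells. Both monocyte arrays lay below 5 for 870 of the 3420 genes that were higher in NK cells, and both NK arrays did for 515 of the 1515 that were lower. Without NK array 1, 2952 genes were higher in NK cells and 1412 lower. After quantile normalization of the 20 arrays the median difference was 0.11, and 2825 genes were higher and 1835 lower, so that 60.6% of the calls were on the NK side, against 69.3% before. Of the 1515 genes that were lower in NK cells, 1369 had a granulocyte mean above 5, and in 542 the granulocyte mean was at least that of monocytes.

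**Figure D2:**
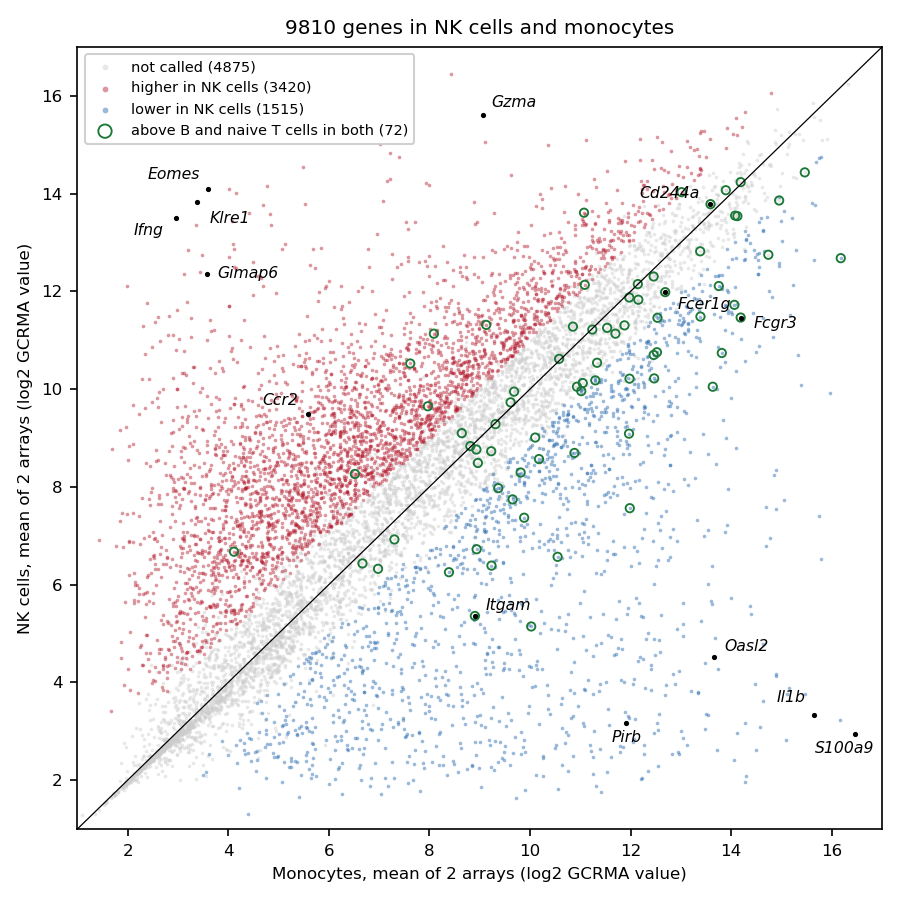
Mean log2 value in NK cells (y axis) against monocytes (x axis) for the 9810 genes tested, with genes called higher in NK cells in red, genes called lower in blue, genes not called in grey, and the 72 genes above B and naive T cells in both types ringed in green. Eomes and Klre1 lie at the upper left, S100a9 and Il1b at the lower right, and Cd244a and Fcer1g near the diagonal at a high level in both.

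The genes with the widest gap between the arrays of the 2 types were, on the NK side, a transcription factor pair, the interferon gamma gene and lectin-like receptors. Eomes, a T-box transcription factor of NK and memory T cells, read 14.09 and 14.08 in NK cells, against 3.38 and 3.82 in monocytes (10.49 ± 0.45; adjusted p = 5.05e-10). Tbx21, which encodes the related factor T-bet, read 12.76 and 12.94 in NK cells, against 3.61 and 2.79 in monocytes (9.65 ± 0.38; adjusted p = 2.14e-10). The 2 NK arrays lay close together for both genes, and both monocyte arrays were near the background. Ifng, the main cytokine of NK cells, read 13.86 and 13.14 in NK cells, against 3.08 and 2.84 in monocytes (10.54 ± 0.93; adjusted p = 6.62e-07). Serpinb6b, a serine protease inhibitor, read 13.91 and 14.12 in NK cells, against 3.92 and 4.38 in monocytes. F2r, the thrombin receptor, read 13.63 and 13.57 in NK cells, against 4.77 and 4.06 in monocytes. The other genes among these 12 were Jakmip1 (10.13 ± 0.70), Klre1 (10.45 ± 0.31), Klrb1a (10.09 ± 0.23), Klrc1 (9.99 ± 0.51), Frmd4b (9.39 ± 1.31), the receptor Gpr171 (8.99 ± 0.63) and the kinase Styk1 (9.08 ± 0.26). Many of them were high in other types too: Jakmip1 averaged 11.96 in B cells and 12.74 in naive CD8 T cells, and Gpr171 averaged 9.64 in B cells. In activated CD8 T cells Ifng averaged 13.44 and Eomes 11.66. In activated CD4 T cells Tbx21 averaged 10.98 and Serpinb6b 12.38. F2r averaged 13.26 in naive CD8 T cells and 14.20 in LT-HSC (long-term hematopoietic stem cells). The highest mean in the 8 other types was 3.19 for Klre1 and 4.64 for Klrb1a.

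On the monocyte side the widest gaps belonged to genes of inflammation and of myeloid granules. S100a9, one chain of calprotectin, read 2.86 and 3.02 in NK cells, against 16.56 and 16.37 in monocytes (-13.53 ± 1.59; adjusted p = 9.36e-06). Its partner S100a8 read 3.33 and 3.14 in NK cells, against 16.19 and 16.15 in monocytes (-12.94 ± 1.66; adjusted p = 2.08e-05). Il1b, interleukin 1 beta, read 3.35 and 3.33 in NK cells, against 15.80 and 15.49 in monocytes (-12.31 ± 0.63; adjusted p = 3.31e-09). In all 3 genes the NK arrays sat at the background and the monocyte arrays above 15. Clec4d, a C-type lectin receptor for mycobacterial lipid, differed by -12.26 ± 1.38, and Hdc, which makes histamine, by -12.31 ± 1.11. Slfn4 differed by -12.20 ± 1.21, Hp (haptoglobin) by -11.65 ± 0.54, Lcn2 by -11.87 ± 1.26 and Mmp9 by -11.72 ± 0.64. Stfa2l1, a stefin of the cysteine protease inhibitors, differed by -11.36 ± 0.20, Dmxl2 by -11.49 ± 0.59 and Gda (guanine deaminase) by -11.14 ± 0.30. Granulocytes carried these genes too. Their granulocyte means lay between 11.31 for Il1b and 16.38 for S100a9, and for Lcn2 (16.26), Mmp9 (16.10), Hp (14.32) and S100a8 (16.32) they exceeded the monocyte mean.

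**Figure D3:**
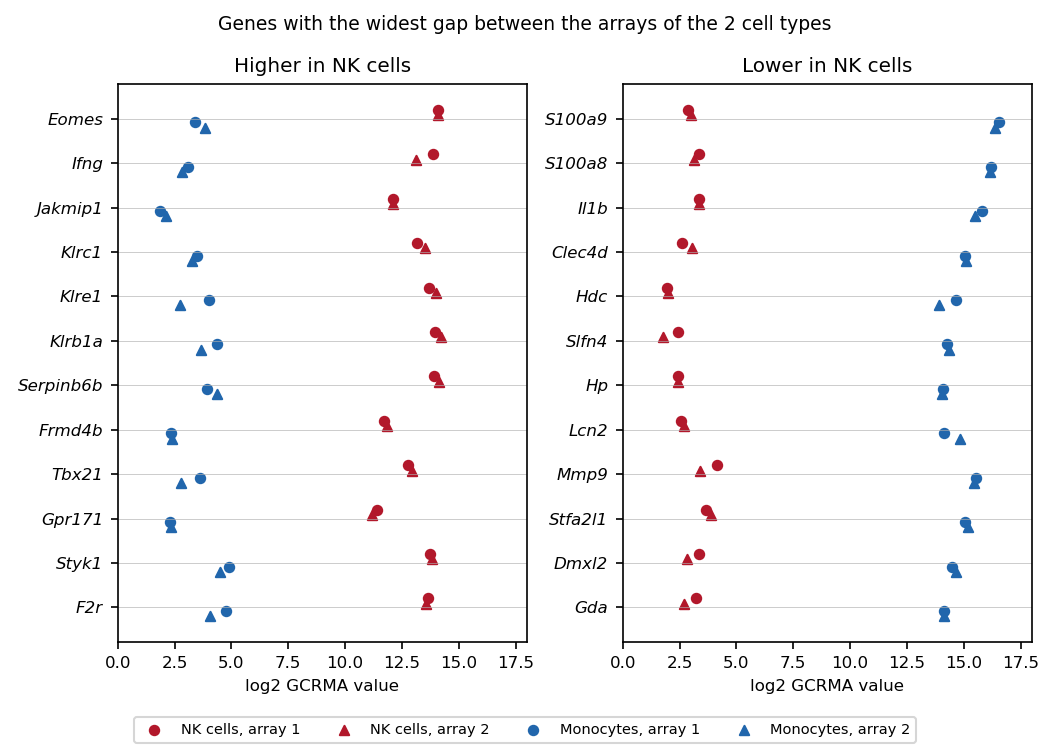
Log2 values (x axis) in the 4 arrays for the 12 genes with the widest gap on each side, with NK cells in red and monocytes in blue, circles for array 1 and triangles for array 2. The arrays of the 2 types are separated by 8.80 or more in every gene on the left and by 10.87 or more in every gene on the right.

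Lists of genes with a known role were read next; 438 entries in 23 lists were looked up, 350 were tested, 48 lay below the filter on low values and 40 had no probe set of their own. A member that passed the filter only through 1 of the 2 types had to differ between them, so the counts describe the members and support nothing beyond that. Over all lists 108 of 350 tested members (30.9%) were higher in NK cells and 145 (41.4%) lower, against 34.9% and 15.4% of all genes tested. The counts of each list below are to be read beside these 2 shares of all genes. Among all 1515 genes that were lower, 1369 had a granulocyte mean above 5, and in 542 it was at least that of monocytes. Granulocyte counts of the lists are to be read beside those, and a high count is not particular to a list.

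**Figure D4:**
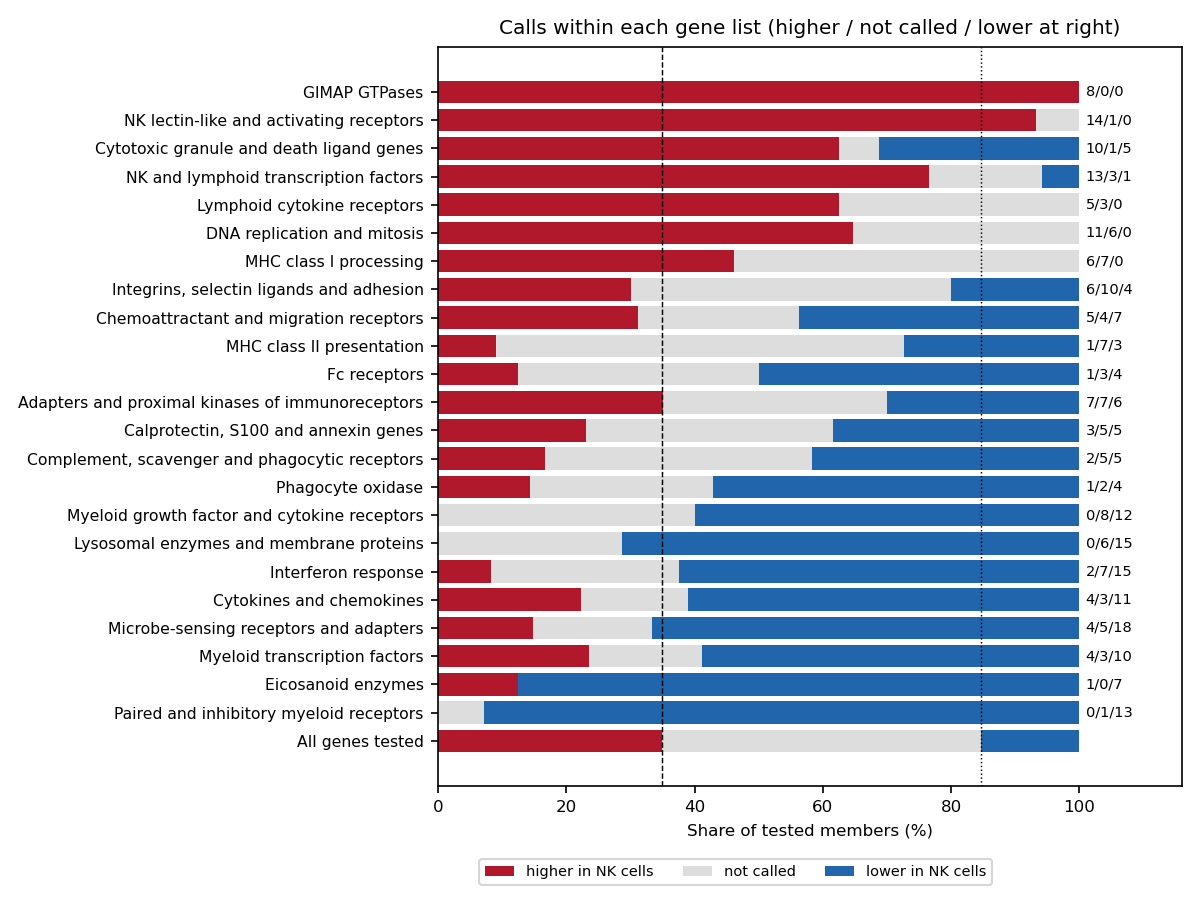
Share of tested members (x axis, percent) called higher in NK cells (red), not called (grey) and called lower (blue) in each of the 23 gene lists, ordered by median difference, with the counts at the right. The bottom bar and the vertical lines give all genes tested (34.9% higher, 15.4% lower); all 8 GIMAP genes are red, and 13 of 14 paired myeloid receptors are blue.

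NK receptors were nearly all on the NK side. Of the list's 15 tested members 14 (93.3%) were higher in NK cells and none lower, with a median difference of 7.35, beside 0.39 over all genes. Klrk1 encodes NKG2D, an activating receptor for stress-induced ligands, and read 11.87 and 11.10 in NK cells, against 2.86 and 2.34 in monocytes (8.89 ± 0.25; adjusted p = 1.07e-11). Ncr1 encodes NKp46, an activating receptor of NK cells, and read 10.58 and 9.82 in NK cells, against 2.29 and 2.28 in monocytes (7.92 ± 0.22; adjusted p = 9.74e-12). Both monocyte arrays lay at the background for these genes, and no array of the other 8 types exceeded 2.58 for Klrk1 or 2.33 for Ncr1. Klrc1, which encodes the inhibitory receptor NKG2A, read 13.16 and 13.54 in NK cells, against 3.48 and 3.25 in monocytes. Klrb1a of the NK1.1 family read 13.97 and 14.22 in NK cells, against 4.37 and 3.65 in monocytes. Klre1, a lectin-like receptor, read 13.68 and 13.99 in NK cells, against 4.02 and 2.75 in monocytes. Klrg1, an inhibitory receptor for cadherins, read 13.13 and 12.79 in NK cells, against 5.21 and 5.05 in monocytes (7.83 ± 0.67). Probe sets of such closely related receptors can share target RNA, so the split between family members is uncertain. The member that did not follow was Cd244a, the receptor 2B4, which binds Cd48; it is described with the shared genes.

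Sequence around the start sites of these receptors was taken from RefSeq on build GRCm38.p6, from 250 bases before to 50 bases after each annotated start. It was at hand for 11 of the 15 tested NK receptors and 11 of the 14 tested paired myeloid receptors. Both strands were searched for 5 short motifs. GAGGAA is the core of many sites of the ETS factor PU.1, and TGTGGTT is a core of RUNX sites. The others were GGTGTGA for T-box factors, TTNNGCAA for C/EBP factors and TATAAA for the TATA box. Among 27025 promoters, 28.3% held GAGGAA, 5.4% TGTGGTT, 4.0% GGTGTGA, 10.8% TTNNGCAA and 14.2% TATAAA. In the 11 NK receptor promoters, TGTGGTT was present in 5 (45.5%). It was present in 3.7% of the promoters of all genes that were higher in NK cells and in 4.3% of those that were lower. Other lists also held it often, among them lymphoid cytokine receptors (2 of 5 promoters) and cytotoxic granule genes (3 of 14). The C/EBP motif was equally frequent in the NK receptor promoters, in 5 (45.5%), GAGGAA was present in 4 (36.4%), the TATA box in 2 (18.2%), and GGTGTGA in none. A match is a run of letters and not a measured binding site, and the promoters below were picked after the matches were known. Those of Klre1 (chr6:129577963-129578262, plus strand, position -229 from the start) and Ncr1 (chr7:4337465-4337764, plus strand, position -176) are shown 5′ to 3′ with TGTGGTT in capitals.
Klre1: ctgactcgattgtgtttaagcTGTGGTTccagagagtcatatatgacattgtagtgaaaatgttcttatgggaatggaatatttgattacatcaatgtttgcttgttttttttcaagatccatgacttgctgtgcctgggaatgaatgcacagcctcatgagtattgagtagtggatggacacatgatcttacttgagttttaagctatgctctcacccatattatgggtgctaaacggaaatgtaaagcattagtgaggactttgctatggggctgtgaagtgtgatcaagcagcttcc
Ncr1: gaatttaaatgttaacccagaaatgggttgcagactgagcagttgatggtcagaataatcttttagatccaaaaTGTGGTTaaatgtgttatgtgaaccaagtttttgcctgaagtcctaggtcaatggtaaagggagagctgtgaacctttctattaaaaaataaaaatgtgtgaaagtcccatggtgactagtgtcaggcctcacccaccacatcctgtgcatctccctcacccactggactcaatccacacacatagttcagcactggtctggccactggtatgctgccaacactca

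The signalling parts behind the receptors were divided between the types. Among 20 tested adapters and kinases 7 (35.0%) were higher in NK cells and 6 (30.0%) lower, against 34.9% and 15.4% of all genes tested. The higher share was thus that of all genes. The median difference was -0.71, which was -0.35 without monocyte array 1. Among the higher members were chains and kinases that NK cells share with T cells. Cd247, the zeta chain, read 11.01 and 10.69 in NK cells, against 4.14 and 4.02 in monocytes (6.77 ± 0.40), and the kinase Zap70 read 9.32 and 8.89 in NK cells, against 2.98 and 2.76 in monocytes (6.24 ± 0.54). The scaffold Lat read 9.20 and 8.33 in NK cells, against 2.74 and 2.38 in monocytes (6.21 ± 0.38), and the SLAM adapter Sh2d1a 8.89 and 8.73 in NK cells, against 3.19 and 3.03 in monocytes (5.70 ± 0.50). Fgr, a Src-family kinase of myeloid cells, was lower in NK cells (7.10 and 7.17 in NK cells, against 12.69 and 12.99 in monocytes; -5.71 ± 0.48; adjusted p = 4.40e-07), and so was the phosphatase Ptpn6, or SHP-1 (-3.08 ± 0.46). Syk, the kinase recruited by Tyrobp and Fcer1g, read 11.80 and 11.25 in NK cells, against 12.79 and 13.18 in monocytes, a difference of -1.46 ± 0.44 (adjusted p = 0.012), and was at 11.25 or above in all 4 arrays. Its call was lost without NK array 2 (-1.19) and without monocyte array 2 (-1.27).

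Genes of cytotoxic granules were mostly higher in NK cells. Of 16 tested members 10 were higher in NK cells and 5 lower, with a median difference of 4.48. Gzmb, granzyme B, read 12.73 and 12.27 in NK cells, against 4.24 and 3.99 in monocytes (8.39 ± 1.15; adjusted p = 3.63e-05). Fasl, the death ligand, read 13.05 and 12.44 in NK cells, against 3.26 and 3.70 in monocytes (9.27 ± 0.66; adjusted p = 8.74e-08). Nkg7, a membrane protein of cytotoxic granules, read 13.59 and 13.28 in NK cells, against 5.14 and 3.02 in monocytes (9.36 ± 0.79; adjusted p = 4.15e-07). Gzma, granzyme A, read 15.72 and 15.50 in NK cells, against 9.23 and 8.89 in monocytes, so that the monocyte arrays also lay above 5. Serpinb9, which inhibits granzyme B, differed by 8.76 ± 0.51, the protease Ctsw by 8.37 ± 0.27 and Cst7, an inhibitor of cathepsins, by 8.13 ± 0.46. The 5 members that were lower in NK cells take part in storing or releasing granules in many cell types, and in 4 of them the granulocyte mean was at least that of monocytes. They were Lyst (-3.95 ± 0.61), the granule proteoglycan Srgn (-2.37 ± 0.28), the fusion protein Stx11 (-1.91 ± 0.27), Rab27a (-1.80 ± 0.33) and Stxbp2 (-1.44 ± 0.46), the last of which lost its call without NK array 2 (-1.08) and without monocyte array 2 (-1.36). Prf1, perforin, lay below the filter, with 7.86 and 4.76 in the NK arrays, against 2.26 and 2.11 in the monocyte arrays, and was not tested.

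Transcription factors followed lineage, with exceptions on the myeloid list. Of 17 NK and lymphoid factors 13 were higher in NK cells and 1 (Irf2) lower, with a median difference of 3.82. The call of Irf2 was lost without NK array 1 (-1.01) and without monocyte array 2 (-0.90). Beside Eomes and Tbx21, Klf12 differed by 7.77 ± 0.20, Ets1 by 5.71 ± 1.22, Prdm1 (Blimp-1) by 5.66 ± 0.37 and Runx3 by 5.23 ± 0.44. Ets1 read 13.55 and 13.30 in NK cells, against 6.05 and 9.38 in monocytes, with the monocyte arrays far apart from each other. Id2, which NK cell development needs, read 15.19 and 15.13 in NK cells, against 12.41 and 12.63 in monocytes (2.64 ± 0.44; adjusted p = 1.79e-04) and was above 12 in every array. Of 17 myeloid factors 10 were lower in NK cells, with a median difference of -4.37, and 4 were higher. The granulocyte mean was above 5 in 9 of the 10 but below the monocyte mean in all 10. Cebpd read 2.27 and 2.30 in NK cells, against 12.40 and 12.69 in monocytes (-10.26 ± 0.49; adjusted p = 1.68e-09). Cebpb read 4.97 and 4.79 in NK cells, against 12.56 and 12.06 in monocytes (-7.43 ± 0.55; adjusted p = 1.31e-07). Klf4 read 4.99 and 5.60 in NK cells, against 10.98 and 12.44 in monocytes (-6.42 ± 0.66; adjusted p = 2.62e-06). These 3 factors are used in monocyte differentiation and in the inflammatory response, and the NK arrays lay at or near 5 and below for all of them. Spi1 read 4.07 and 4.63 in NK cells, against 10.21 and 10.03 in monocytes (-5.77 ± 0.44). The immediate-early factors Fos (8.98 and 6.20 in NK cells, against 14.90 and 14.48 in monocytes; -7.10 ± 0.99) and Atf3 (4.55 and 4.85 in NK cells, against 13.22 and 10.29 in monocytes; -7.06 ± 0.82) were lower in NK cells as well, while Egr1 (10.41 and 9.79 in NK cells, against 14.42 and 9.74 in monocytes) was not called, with the monocyte arrays far apart. Irf8, a factor of monocyte and dendritic cell development, went against the list, at 13.38 and 12.47 in NK cells, against 7.54 and 9.02 in monocytes (4.65 ± 0.66; adjusted p = 4.74e-05), and so did Gfi1 (5.20 ± 0.52), Maf (5.92 ± 0.88) and Runx1 (1.89 ± 0.44).

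Those receptors of lymphoid cytokines that were called lay on the NK side, and the called receptors of myeloid growth factors on the monocyte side. Among 8 tested lymphoid cytokine receptors 5 (62.5%) were higher in NK cells, none lower and 3 not called (median 3.59). Of all genes tested 34.9% were higher and 15.4% lower. Il2rb, the shared beta chain of the interleukin 2 and 15 receptors, lay well above the monocyte values of 2.95 and 2.96 in NK cells (7.84 ± 0.52; adjusted p = 3.99e-08). Il7r read 10.92 and 11.10 in NK cells, against 3.36 and 3.81 in monocytes (7.43 ± 0.65; adjusted p = 6.62e-07). Il27ra (5.75 ± 0.23), Il12rb1 (4.16 ± 0.49) and Il18r1 (3.01 ± 0.95) were also higher, but Il18r1 was not called when any one of the 4 arrays was left out (at most 3.03). Il18rap, the partner of Il18r1, was high in both types (13.90 and 13.62 in NK cells, against 12.15 and 12.93 in monocytes). Among 20 myeloid growth factor and cytokine receptors 12 were lower in NK cells and none higher (median -1.96), and all 12 had a granulocyte mean above 5. Il1r2, the interleukin 1 decoy receptor, read 2.49 and 2.57 in NK cells, against 12.85 and 12.80 in monocytes (-10.30 ± 0.79; adjusted p = 1.66e-07). Il13ra1 read 3.27 and 3.41 in NK cells, against 13.56 and 13.53 in monocytes (-10.21 ± 0.18; adjusted p = 2.23e-13). Csf2rb, the common beta chain of the GM-CSF receptor, read 7.01 and 3.81 in NK cells, against 14.20 and 14.58 in monocytes (-8.98 ± 0.81). Its relative Csf2rb2 differed by -9.08 ± 1.03, Csf2ra by -6.70 ± 0.38, and Csf3r by -7.94 ± 0.39.

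Among 18 tested cytokines and chemokines 4 were higher in NK cells and 11 lower (median -3.30, and -2.20 without monocyte array 1), and all 11 had a granulocyte mean above 5. Besides Ifng, the chemokine Ccl5 was on the NK side, at 15.27 and 14.85 in NK cells, against 9.65 and 8.58 in monocytes (5.95 ± 1.03; adjusted p = 2.59e-04), as were Xcl1 (9.05 and 9.03 in NK cells, against 3.25 and 3.21 in monocytes; 5.81 ± 0.29) and Ccl4 (3.28 ± 0.42). On the monocyte side Cxcl2, which draws neutrophils, read 2.59 and 2.64 in NK cells, against 14.77 and 12.67 in monocytes (-11.11 ± 1.86; adjusted p = 1.96e-04). Ccl6 read 4.71 and 3.21 in NK cells, against 14.35 and 14.59 in monocytes (-10.51 ± 0.94; adjusted p = 7.32e-07). Tnfsf13b, the B cell survival factor BAFF, read 2.39 and 2.35 in NK cells, against 9.19 and 9.55 in monocytes (-7.00 ± 0.53; adjusted p = 1.44e-07). Ccl3 was not called, with 11.61 and 10.11 in NK cells, against 11.23 and 6.21 in monocytes, and the monocyte arrays differed by more than the types did. Without monocyte array 1 it was called higher in NK cells (4.65). Il15, which NK cells need and myeloid cells present, read 7.77 and 7.36 in NK cells, against 12.01 and 11.96 in monocytes (-4.42 ± 0.47; adjusted p = 3.70e-06).

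Receptors that guide migration were mixed, with 5 of 16 tested members higher in NK cells and 7 lower (median -0.28, and -0.18 without monocyte array 2). These were 31.2% and 43.8%, against 34.9% and 15.4% of all genes tested. Ccr1, an inflammatory chemokine receptor, read 4.06 and 4.20 in NK cells, against 14.86 and 14.92 in monocytes (-10.76 ± 0.40; adjusted p = 1.27e-10). Fpr2, a formyl peptide receptor, read 3.47 and 2.63 in NK cells, against 13.15 and 13.81 in monocytes (-10.43 ± 1.00; adjusted p = 1.50e-06). Cxcr2 (-5.32 ± 0.26), Ltb4r1, a leukotriene B4 receptor (-4.92 ± 0.17), and the complement receptor C5ar1 (-4.53 ± 0.47) were lower in NK cells too. Cmklr1, the chemerin receptor, ran the other way, at 8.87 and 9.38 in NK cells, against 2.87 and 2.93 in monocytes (6.23 ± 0.20; adjusted p = 2.64e-11), and so did Cxcr3 (12.02 and 11.96 in NK cells, against 7.89 and 7.32 in monocytes; 4.39 ± 0.61) and Ccr2 (3.91 ± 0.30; adjusted p = 1.52e-07). The 3 other probe sets of Ccr2 also read higher in NK cells. Cx3cr1, a marker of patrolling monocytes, was low in all 4 arrays (4.93 and 5.10 in NK cells, against 5.15 and 5.57 in monocytes) and was not called.

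Microbe sensing lay mostly on the monocyte side. Of 27 tested receptors and adapters 18 (66.7%) were lower in NK cells and 4 higher, with a median difference of -3.63. Of the 18, 16 had a granulocyte mean above 5, and in 4 it was at least that of monocytes. Among all 1515 lower genes these counts were 1369 and 542. Clec7a, or Dectin-1, which binds fungal glucan, read 7.53 and 5.53 in NK cells, against 15.82 and 15.76 in monocytes (-9.26 ± 0.79; adjusted p = 4.93e-07). Tlr13, a receptor of bacterial ribosomal RNA in mice, read 3.19 and 3.17 in NK cells, against 12.41 and 12.65 in monocytes (-9.35 ± 0.27; adjusted p = 1.07e-11). Clec4e, or Mincle, read 4.01 and 2.68 in NK cells, against 12.21 and 12.94 in monocytes (-9.23 ± 0.89; adjusted p = 1.50e-06). The monocyte arrays were above 12 for each of these, and the NK arrays lay below 5 for Tlr13 and Clec4e. Tlr6, a partner of Tlr2 for lipopeptides, differed by -8.07 ± 0.63. Cd14 read 1.62 and 1.65 in NK cells, against 10.24 and 9.22 in monocytes (-8.10 ± 1.01; adjusted p = 1.58e-05), and 2.12 and 1.82 in granulocytes. The 4 members that were higher in NK cells were Sting1, Pycard, Cgas and Tlr3. Sting1, the adapter of DNA sensing, read 12.65 and 12.74 in NK cells, against 8.87 and 8.90 in monocytes (3.81 ± 0.28; adjusted p = 1.18e-07). Pycard, the inflammasome adapter, read 11.05 and 10.70 in NK cells, against 7.06 and 6.62 in monocytes (4.04 ± 0.30; adjusted p = 1.45e-07). Cgas, the enzyme upstream of Sting1, read 10.09 and 9.93 in NK cells, against 7.60 and 9.11 in monocytes (1.66 ± 0.58; adjusted p = 0.0258), but was not called without monocyte array 1 (0.90), NK array 1 (1.58) or NK array 2 (1.74). Tlr3, a receptor of double-stranded RNA, was below 5 in all 4 arrays. Other cytosolic sensors were not on the NK side: Aim2 (-3.55 ± 0.57), Nlrp3 (-4.88 ± 0.31) and Ifih1 (-2.07 ± 0.42) were lower in NK cells, and Naip2 (-1.10 ± 0.50) was not called.

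Paired and inhibitory receptors of myeloid cells were the counterpart of the NK receptors. Of 14 tested members 13 (92.9%) were lower in NK cells and none higher, with a median difference of -7.40. Of the 13, 12 had a granulocyte mean above 5, and in 4 it was at least that of monocytes. Among all 1515 lower genes these counts were 1369 and 542. Pirb, an inhibitory receptor for MHC class I, read 3.10 and 3.24 in NK cells, against 12.00 and 11.83 in monocytes (-8.75 ± 0.41; adjusted p = 1.28e-09). Trem1, which amplifies inflammation through Tyrobp, read 3.31 and 3.49 in NK cells, against 12.99 and 10.80 in monocytes (-8.50 ± 0.48; adjusted p = 8.63e-09). Trem3 read 3.33 and 3.37 in NK cells, against 13.78 and 13.21 in monocytes (-10.15 ± 0.44; adjusted p = 5.91e-10). The NK arrays stayed below 4 for all 3. Cd300ld (-9.53 ± 0.22), Pilra (-7.84 ± 0.46) and Cd300a (-7.77 ± 0.41) were lower by a similar amount. Cd300lf, an inhibitory receptor for membrane lipids, was lower in NK cells but not low there (10.24 and 9.94 in NK cells, against 15.52 and 15.25 in monocytes; -5.30 ± 0.61), and Cd200r1 was not called (5.49 and 5.61 in NK cells, against 6.16 and 7.11 in monocytes).

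In this family GAGGAA was present in 9 of 11 promoters (81.8%), against 28.3% of all promoters, and the C/EBP motif in 4 (36.4%), against 10.8%. Other lists also held GAGGAA often. It was present in 5 of 7 promoters of eicosanoid enzymes (71.4%), in 5 of 8 of Fc receptors and in 5 of 8 of complement and phagocytic receptors (62.5% each). For adhesion genes it was 6 of 12, and for microbe sensing 10 of 21 (47.6%). It was present in 30.8% of the promoters of all genes that were lower in NK cells and in 26.6% of those that were higher. The promoters of Pirb (chr7:3720333-3720632, minus strand, positions -185, -120 and -87) and Trem1 (chr17:48232489-48232788, plus strand, position -162) are shown 5′ to 3′ with GAGGAA in capitals, on either strand.
Pirb: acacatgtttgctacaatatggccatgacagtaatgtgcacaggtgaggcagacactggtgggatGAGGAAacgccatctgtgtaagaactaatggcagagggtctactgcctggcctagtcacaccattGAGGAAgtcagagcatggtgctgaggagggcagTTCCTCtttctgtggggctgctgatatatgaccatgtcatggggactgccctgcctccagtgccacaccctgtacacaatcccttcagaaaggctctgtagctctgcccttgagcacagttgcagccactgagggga
Trem1: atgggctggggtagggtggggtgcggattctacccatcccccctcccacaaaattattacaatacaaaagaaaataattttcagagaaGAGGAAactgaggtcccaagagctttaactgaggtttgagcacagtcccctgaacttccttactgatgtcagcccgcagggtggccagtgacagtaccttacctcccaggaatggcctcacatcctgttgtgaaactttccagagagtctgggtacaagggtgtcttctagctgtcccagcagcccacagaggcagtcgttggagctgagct

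Lysosomal genes were mostly lower in NK cells, yet some were high in both types. Of 21 lysosomal genes 15 (71.4%) were lower in NK cells and none higher (median -2.14), and 9 of the 21 lay at 10 or above in all 4 arrays. The granulocyte mean was above 5 in all 15 and at least that of monocytes in 6. Lyz2 read 9.28 and 4.29 in NK cells, against 14.21 and 15.17 in monocytes (-7.91 ± 1.39; adjusted p = 2.89e-04). Slc11a1, a metal transporter of phagosomes, read 3.76 and 2.77 in NK cells, against 11.04 and 10.59 in monocytes (-7.55 ± 0.34; adjusted p = 9.64e-10). Ctsh read 7.25 and 3.41 in NK cells, against 11.81 and 12.69 in monocytes (-6.92 ± 1.23). For Lyz2 and Ctsh the lower of the 2 NK arrays was array 2, the one with the lower sum of macrophage markers (28.7, against 39.5 in array 1), whose part in the difference was not tested. Ctsl (-3.97 ± 0.61), Ctsz (-2.97 ± 0.54) and Asah1 (-2.88 ± 0.45) were lower too. In the oxidase list 4 of 7 (57.1%) were lower in NK cells and 1 (14.3%) higher (median -1.76). Of all genes tested 15.4% were lower and 34.9% higher. Ncf1, the organising subunit, read 5.82 and 5.64 in NK cells, against 12.16 and 12.06 in monocytes (-6.38 ± 0.55; adjusted p = 5.16e-07). Cybb read 4.66 and 3.25 in NK cells, against 5.59 and 11.03 in monocytes (-4.36 ± 1.31; adjusted p = 0.0121), and the proton channel Hvcn1 9.67 and 9.42 in NK cells, against 6.85 and 6.23 in monocytes (3.01 ± 0.48; adjusted p = 1.27e-04). The call of Cybb was lost without NK array 2 (-3.65) and without monocyte array 2 (-1.64). Rac2, the GTPase of the oxidase in blood cells, was at 12.25 or above in all 4 arrays. Of 12 complement and phagocytic receptors 5 (41.7%) were lower in NK cells and 2 (16.7%) higher (median -1.45, and -0.82 without monocyte array 2). Cd68, a lysosomal scavenger protein, read 5.49 and 2.22 in NK cells, against 10.78 and 11.41 in monocytes (-7.24 ± 1.08), and Adgre1, a surface receptor of macrophages, 7.93 and 4.94 in NK cells, against 12.04 and 12.28 in monocytes (-5.73 ± 0.62). C1qb, a chain of the first complement component, read 10.21 and 7.44 in NK cells, against 7.44 and 7.06 in monocytes. The haemoglobin scavenger Cd163 read 5.82 and 4.11 in NK cells, against 2.38 and 2.37 in monocytes, each with the highest of its values in NK array 1. Without that array Cd163 was no longer called (1.74), which left 1 higher member.

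Enzymes of lipid mediators were mostly lower in NK cells. Of 8 eicosanoid enzymes 7 were lower in NK cells and 1 higher (median -4.64), and 5 of the 7 had a granulocyte mean above 5. Alox5ap, which hands arachidonate to 5-lipoxygenase, read 5.86 and 2.50 in NK cells, against 14.88 and 14.92 in monocytes (-10.72 ± 0.82; adjusted p = 1.75e-07). Alox5 itself read 2.48 and 2.46 in NK cells, against 12.21 and 11.01 in monocytes (-9.14 ± 0.36; adjusted p = 2.08e-10). Pla2g7 read 2.65 and 2.56 in NK cells, against 10.74 and 11.69 in monocytes (-8.61 ± 0.25; adjusted p = 1.09e-11). Lta4h, the next enzyme on the path to leukotriene B4, was higher in NK cells (11.56 and 11.11 in NK cells, against 8.20 and 8.89 in monocytes; 2.79 ± 0.31; adjusted p = 6.49e-06). Ptgs2 was called (-4.82 ± 1.44; adjusted p = 0.0117), yet its monocyte values were 11.33 and 4.25. The call was lost without monocyte array 1 (-1.28) and without NK array 1 (-4.74). Among 13 S100, annexin and galectin genes 5 (38.5%) were lower in NK cells, 3 (23.1%) higher and 5 not called (median -0.78). Of all genes tested 15.4% were lower and 34.9% higher. S100a6 was lower in NK cells like S100a8 and S100a9, at 10.59 and 10.93 in NK cells, against 14.54 and 14.46 in monocytes (-3.74 ± 0.43), while S100a10 was higher, at 13.47 and 14.02 in NK cells, against 10.16 and 10.08 in monocytes (3.63 ± 0.42). Lgals1 and Lgals3, galectins that bind sugars on cell surfaces, moved in opposite directions. Lgals1 read 13.70 and 14.01 in NK cells, against 6.36 and 7.81 in monocytes (6.77 ± 0.68; adjusted p = 2.38e-06). Lgals3 read 6.80 and 6.23 in NK cells, against 12.65 and 12.44 in monocytes (-6.03 ± 0.48; adjusted p = 2.33e-07).

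Interferon response genes were lower in NK cells in 15 of 24 tested members (62.5%) and higher in 2, with a median difference of -2.41. All 15 had a granulocyte mean above 5, and in 2 it was at least that of monocytes, beside 1369 and 542 of all 1515 lower genes. Ifitm2, which blocks entry of viruses, read 2.05 and 1.99 in NK cells, against 12.21 and 12.20 in monocytes (-10.19 ± 0.74; adjusted p = 9.87e-08). Ifitm1 read 4.49 and 5.07 in NK cells, against 14.61 and 14.65 in monocytes (-9.85 ± 0.74; adjusted p = 1.45e-07). Oasl2 read 4.81 and 4.22 in NK cells, against 13.33 and 13.99 in monocytes (-9.15 ± 0.50; adjusted p = 6.36e-09). Rsad2, or viperin, read 8.06 and 6.09 in NK cells, against 14.11 and 13.64 in monocytes (-6.80 ± 0.48), and Oas2 (-8.70 ± 0.39) and Ifitm3 (-7.36 ± 0.65) were lower as well. The list was not uniform. Ifit2 (10.16 and 9.60 in NK cells, against 8.06 and 7.72 in monocytes; 1.99 ± 0.78; adjusted p = 0.0455) and Mx1 (8.19 and 7.91 in NK cells, against 4.73 and 6.94 in monocytes; 2.22 ± 0.70; adjusted p = 0.0158) were higher in NK cells, though neither was called without NK array 1 (1.71 for Ifit2 and 2.08 for Mx1) or without monocyte array 1 (2.16 and 1.11). Ifi35 was nearly equal in the 4 arrays (12.86 and 12.81 in NK cells, against 12.88 and 12.82 in monocytes).

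Antigen presentation was divided. Of 13 MHC class I processing genes 6 (46.2%) were higher in NK cells and none lower (median 1.02). Of all genes tested 34.9% were higher and 15.4% lower. Erap1, a peptide-trimming enzyme, read 9.26 and 9.18 in NK cells, against 3.80 and 3.79 in monocytes (5.43 ± 0.42; adjusted p = 1.71e-07). Nlrc5, the class I transactivator, read 10.55 and 10.55 in NK cells, against 8.30 and 8.42 in monocytes (2.19 ± 0.30; adjusted p = 3.44e-05). On the list of MHC class II presentation 3 of 11 members (27.3%) were lower in NK cells and 1 (9.1%) higher (median -0.63). The 3 lower members were Cd74, Cd80 and Cd86, of which Cd80 and Cd86 are costimulatory ligands rather than class II genes. The class II chain H2-Aa read 10.02 and 8.29 in NK cells, against 9.60 and 11.01 in monocytes and was not called. The invariant chain Cd74 read 6.59 and 4.56 in NK cells, against 7.75 and 8.41 in monocytes (-2.51 ± 0.88; adjusted p = 0.0272), and the costimulatory ligands Cd80 (2.65 and 2.66 in NK cells, against 9.20 and 8.07 in monocytes; -5.98 ± 0.37) and Cd86 (5.72 and 2.90 in NK cells, against 7.95 and 7.36 in monocytes; -3.35 ± 0.89) were lower in NK cells. For H2-Aa and Cd74, NK array 1 was above NK array 2. The class II counts depended on single arrays. Without NK array 1 the list had 4 lower genes and none higher (median -1.53), and H2-Aa was called lower in NK cells (-2.02; adjusted p = 0.03 by limma). Without NK array 2 it had 1 lower gene (median -0.29), and neither Cd74 (-1.49) nor Cd86 (-1.94) was called. Without monocyte array 1 the median was -1.56, and without monocyte array 2 it was -0.12. Leaving out monocyte array 1 (-2.84) or array 2 (-2.18) also ended the call of Cd74.

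GIMAP genes and genes of cell division lay on the NK side without exception among those called. All 8 GIMAP genes, GTPases of lymphocyte survival, were higher in NK cells (median 7.45). Gimap6 read 12.58 and 12.12 in NK cells, against 3.59 and 3.57 in monocytes (8.77 ± 0.27; adjusted p = 2.32e-11). Gimap7 read 11.40 and 11.82 in NK cells, against 2.98 and 2.97 in monocytes (8.64 ± 0.47; adjusted p = 5.65e-09), while Gimap8 (15.01 and 15.04 in NK cells, against 5.23 and 8.79 in monocytes) and Gimap4 (14.88 and 14.80 in NK cells, against 5.52 and 8.92 in monocytes) showed a wide spread between the monocyte arrays. Of 17 replication and mitosis genes 11 were higher in NK cells and none lower (median 3.20). Mki67, a marker of cycling cells, read 11.62 and 11.80 in NK cells, against 4.71 and 3.34 in monocytes (7.69 ± 0.72; adjusted p = 1.17e-06), and the DNA topoisomerase Top2a 9.80 and 9.43 in NK cells, against 3.24 and 1.47 in monocytes (7.26 ± 0.63; adjusted p = 6.07e-07). Rrm2 (7.25 ± 0.96), Mcm6 (4.74 ± 0.29) and Mcm3 (4.43 ± 0.41) were higher too, whereas the mitotic kinase gene Cdk1 (4.82 and 3.32 in NK cells, against 3.23 and 3.18 in monocytes) and Plk1 (2.43 and 2.63 in NK cells, against 2.65 and 2.65 in monocytes) were not called and lay below 5 in all 4 arrays. Among 20 adhesion genes 6 (30.0%) were higher in NK cells and 4 (20.0%) lower (median 0.90), near the 34.9% and 15.4% of all genes tested. Cd2 read 11.43 and 10.69 in NK cells, against 3.26 and 3.27 in monocytes (7.80 ± 0.35; adjusted p = 8.41e-10). Cd48, the ligand of Cd244a, read 12.92 and 12.47 in NK cells, against 4.81 and 10.36 in monocytes (5.11 ± 1.17; adjusted p = 0.00214). The monocyte arrays of Cd48 lay far apart, and its call was lost in the fit of the 4 arrays alone.

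To find what the 2 innate types share, genes were sought that were higher in both NK cells and monocytes than in B cells, naive CD4 and naive CD8 T cells, each of the 6 contrasts included. There were 72 such genes, 0.734% of the 9810 tested, and 36 of them lay at 10 or above in all 4 arrays. Of the 72, 9 were also higher in NK cells than in monocytes, 25 were lower and 38 were not called, and the monocyte mean was the higher one in 53. All arrays are labelled female, yet the Y-linked gene Eif2s3y read 12.84 in naive CD4 array 1 and 11.76 in naive CD8 array 1, beside 3.05 to 3.33 in the NK and monocyte arrays. Without both of those naive T cell arrays 42 genes were called, and the part of these arrays' origin in the calls was not tested. The activated T cell arrays, which entered the fit, also read high for Eif2s3y (11.98 and 10.73 for CD4, 12.51 and 10.97 for CD8). Without naive CD8 array 2 there were 46 genes, and without NK array 1 there were 34. Of the 72 genes, 27 were called under each of the 24 alternatives tried, among them Cd244a, Fcer1g, Fcgr3, Itgam, Itgax, Il15, Stx11, Naip2 and Anxa2. Granulocytes were not part of this contrast. In 45 of the 72 genes the granulocyte mean was at least the lower of the NK and monocyte means, and in 16 it lay 1 or more below both.

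Among the 350 list members tested, 16 (4.57%) were shared genes, receptors and their adapters among them. Cd244a read 13.91 and 13.66 in NK cells, against 13.45 and 13.73 in monocytes, a difference of 0.20 ± 0.35 with a 95% interval of -0.57 to 0.96, and stood at least 5.64 ± 0.35 above B and naive T cells (adjusted p = 1.48e-06). No array of the other 8 types exceeded 8.06 for it. Fcer1g read 12.26 and 11.71 in NK cells, against 12.69 and 12.69 in monocytes, at least 5.15 ± 0.69 above B and naive T cells (adjusted p = 9.73e-04). Tyrobp, its partner adapter, read 14.01 and 13.71 in NK cells, against 15.18 and 14.73 in monocytes, at least 3.78 ± 0.78 above (adjusted p = 0.0257), a call that was lost when any single NK or naive CD4 array was left out. The adapters did not differ detectably between NK cells and monocytes, with 95% intervals of -2.19 to 0.78 for Fcer1g and -2.79 to 0.60 for Tyrobp, which leave room for a difference of over 4-fold. Fcgr3, the low-affinity IgG receptor known as CD16 in mice, which signals through Fcer1g, read 11.65 and 11.28 in NK cells, against 14.15 and 14.23 in monocytes. It was lower in NK cells (-2.73 ± 0.49; adjusted p = 3.42e-04) and at least 4.65 ± 0.49 above B and naive T cells in both (adjusted p = 1.15e-04). Of 8 tested Fc receptors 1 (Trim21) was higher in NK cells and 4 were lower (median -0.68). None was higher without NK array 1 or without monocyte array 1, and the median was -0.43 without NK array 2 and -0.23 without monocyte array 2. Fcgr2b, the inhibitory IgG receptor, read 10.02 and 9.14 in NK cells, against 9.24 and 9.71 in monocytes and was not called. Fcgr4, an activating IgG receptor, was on the monocyte side alone (1.76 and 1.77 in NK cells, against 11.04 and 11.77 in monocytes; -9.64 ± 0.22).

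Among the promoters at hand for 60 of the shared genes, 19 (31.7%) held GAGGAA, near the 28.3% of all promoters. Cd244a and Fcgr3 are shown as the receptors described above, and both were picked after their matches were known. The promoters of Cd244a (chr1:171558943-171559242, plus strand, position 5) and Fcgr3 (chr1:171059354-171059653, minus strand, position -6) are shown 5′ to 3′ with GAGGAA in capitals, on either strand.
Cd244a: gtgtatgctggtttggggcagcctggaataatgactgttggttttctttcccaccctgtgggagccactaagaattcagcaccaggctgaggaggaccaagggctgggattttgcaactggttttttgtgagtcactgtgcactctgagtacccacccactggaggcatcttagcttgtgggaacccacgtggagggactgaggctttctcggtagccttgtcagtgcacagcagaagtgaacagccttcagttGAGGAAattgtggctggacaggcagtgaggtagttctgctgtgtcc
Fcgr3: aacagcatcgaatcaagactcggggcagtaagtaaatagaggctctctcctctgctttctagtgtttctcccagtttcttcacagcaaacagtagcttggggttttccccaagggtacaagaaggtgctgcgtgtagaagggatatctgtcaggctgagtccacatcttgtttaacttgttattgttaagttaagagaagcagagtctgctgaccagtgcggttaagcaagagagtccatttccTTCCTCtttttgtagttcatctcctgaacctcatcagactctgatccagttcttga

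Single members of other lists were also shared, among them 1 of 16 tested migration receptors (S1pr5) and 1 of 20 adhesion genes (Cd44). Itgax, or CD11c, an integrin chain used to mark dendritic cells, read 11.40 and 11.23 in NK cells, against 9.41 and 8.85 in monocytes and was higher in NK cells (2.19 ± 0.41; adjusted p = 4.99e-04). Itgam, or CD11b, read 5.38 and 5.34 in NK cells, against 9.50 and 8.31 in monocytes and was lower (-3.55 ± 0.29; adjusted p = 3.10e-07). B and naive T cells lay at least 3.72 ± 0.41 and 2.82 ± 0.29 below both types for these chains. S1pr5, the sphingosine phosphate receptor that lets NK cells and patrolling monocytes leave the bone marrow in mice, read 13.92 and 13.30 in NK cells, against 10.22 and 11.93 in monocytes (2.54 ± 0.67; adjusted p = 0.00548). Its granulocyte mean was 3.12, and without monocyte array 1 it was not called higher in NK cells than in monocytes (1.68). Cd244a, S1pr5, Itgax, Zeb2, Prr5l, Dhrs3 and Fgl2 were the 7 shared genes whose NK and monocyte means both lay 1 or more above the mean of each of the 8 other types. They were chosen here for that pattern. Zeb2, a transcription factor of late NK cell and monocyte maturation, read 9.70 and 10.20 in NK cells, against 8.79 and 10.58 in monocytes, but its call held in only 8 of 24 alternatives. Fgl2, a secreted or membrane-bound prothrombinase, read 12.55 and 12.95 in NK cells, against 14.63 and 14.85 in monocytes.

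Outside the role lists the shared genes with the widest margin were Arap3, a GTPase-activating protein (11.92 and 12.30 in NK cells, against 13.54 and 13.97 in monocytes; at least 7.19 ± 0.44 above B and naive T cells), and Zfhx3, a large homeobox transcription factor (8.78 and 8.75 in NK cells, against 8.78 and 9.09 in monocytes; at least 5.93 ± 0.42). Both were called under every alternative tried, and Zfhx3 lay in a narrow range in the 4 arrays. Rap1gap2, which limits the GTPase Rap1, read 11.86 and 10.70 in NK cells, against 10.87 and 10.84 in monocytes, and the SNARE protein Stx3 9.35 and 9.22 in NK cells, against 9.40 and 9.23 in monocytes. Metrnl (7.16 and 5.98 in NK cells, against 10.84 and 10.26 in monocytes) was lower in NK cells and Vegfc (10.68 and 11.59 in NK cells, against 6.78 and 9.40 in monocytes), a growth factor of lymphatic vessels, was higher. Anxa1, a phospholipid-binding annexin, read 14.48 and 14.39 in NK cells, against 15.51 and 15.42 in monocytes, and its relative Anxa2 13.92 and 13.18 in NK cells, against 14.19 and 13.97 in monocytes. The sensor Naip2, which detects bacterial secretion systems, read 9.14 and 8.88 in NK cells, against 9.71 and 10.50 in monocytes, and the adhesion receptor Cd44 10.58 and 10.90 in NK cells, against 13.67 and 13.96 in monocytes. The lysosomal protease Ctsd read 12.41 and 11.34 in NK cells, against 11.72 and 12.23 in monocytes. Ifngr1, the ligand-binding chain of the interferon gamma receptor, read 10.82 and 10.42 in NK cells, against 10.04 and 11.12 in monocytes. The last 2 lost their call in 10 and 13 of the 24 alternatives.

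**Figure D5:**
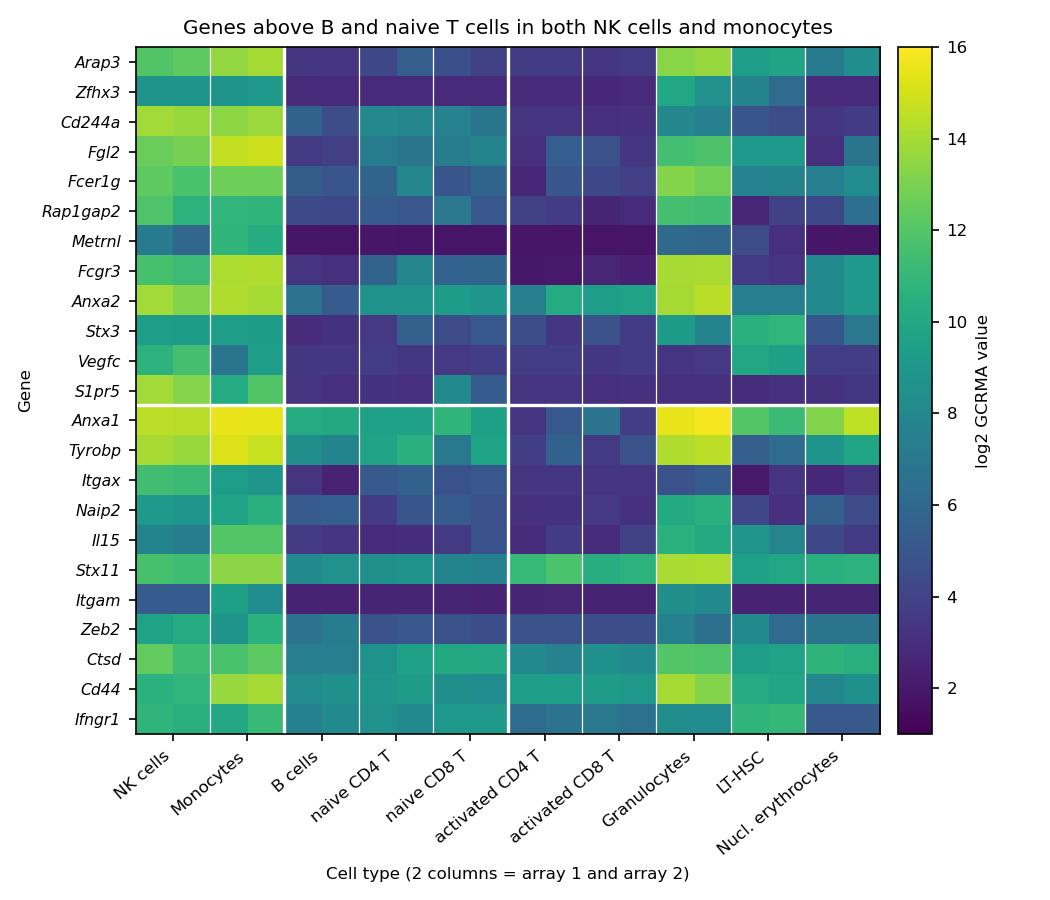
Log2 values (colour) of 23 genes that were above B and naive T cells in both NK cells and monocytes, in 20 arrays grouped by cell type, with the 12 widest margins above the white line and further members of the role lists below it. NK cells and monocytes stand at the left, and the granulocyte columns are as bright for Arap3, Fcer1g and Fcgr3 but dark for S1pr5 and Vegfc.

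A level of 10 or above in all 4 arrays, without regard to other types, was reached by 1512 genes (15.4%). Among these 291 were higher in NK cells and 215 lower, and for 428 (4.36% of all genes) the 95% interval of the difference lay within -1 and 1. The role lists held 60 of 350 such genes (17.1%) and 13 (3.71%) with the narrow interval, shares near those of all genes. The list members with the highest minimum were B2m, Anxa1, Tapbp, Itgb2, Tyrobp and Itgal. B2m, the light chain of MHC class I, read 15.19 and 15.21 in NK cells, against 14.87 and 15.12 in monocytes. Tapbp, which loads peptides onto class I, read 14.24 and 13.92 in NK cells, against 13.95 and 13.83 in monocytes. Itgb2, the beta chain of the leukocyte integrins, read 14.77 and 14.10 in NK cells, against 13.76 and 14.58 in monocytes. Itgal, the alpha chain of LFA-1, read 13.95 and 13.70 in NK cells, against 13.96 and 14.22 in monocytes. Selplg, the selectin ligand PSGL-1, read 14.01 and 13.62 in NK cells, against 14.38 and 14.29 in monocytes, the integrin chain Itga4 13.78 and 13.81 in NK cells, against 12.92 and 13.01 in monocytes, and Parp14 13.66 and 13.16 in NK cells, against 12.99 and 13.03 in monocytes. Trim30a read 13.01 and 12.95 in NK cells, against 13.93 and 14.81 in monocytes. The 13 list members with the narrow interval were B2m, Tapbp, Itgal, Cd244a, Ifi35, Npc2, Ifnar2, Casp1, Ctsd, Inpp5d, Psmb9, Ifngr1 and Cfp. A high level here need not set these types apart, as B2m averaged between 14.28 and 15.06 in the other 8 types. Casp1, the protease of the inflammasome, read 11.58 and 11.83 in NK cells, against 11.38 and 11.85 in monocytes. Inpp5d, the lipid phosphatase SHIP-1 of inhibitory receptors, read 10.92 and 10.76 in NK cells, against 10.42 and 10.71 in monocytes. Cfp (properdin) and Ifnar2 were lower in NK cells by a second probe set. It read 6.69 and 4.52 in NK cells, against 10.85 and 10.25 in monocytes for Cfp. For Ifnar2 it read 8.21 and 8.19 in NK cells, against 9.32 and 9.62 in monocytes.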

How the data were processed

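Expression was measured on 20 Affymetrix Mouse430_2 arrays, 2 for each of 10 cell types. The deposited log2 values were made by the authors with GCRMA (a background correction and normalization method), per the submitters' processing notes. Array medians lay between 3.08 and 3.27, and the number of arrays limits the precision. Of 45101 probe sets, 34945 carried 1 gene symbol in the platform annotation, 932 several, and 9160 were unnamed here. Each of 18193 genes was read from its probe set with the highest mean, and the 9810 genes above 5 in at least 2 of the 20 arrays were tested.

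All 10 types were fitted together with limma 3.58.1 in R 4.3.3, leaving 10 residual degrees of freedom, with Benjamini-Hochberg adjustment over the 9810 genes. A gene was called at an adjusted p under 0.05 and a difference of at least 1. The shared test took the largest of 6 one-sided p-values, for NK cells and monocytes over B, naive CD4 and naive CD8 T cells. The alternatives tried concerned the arrays fitted, array weights, filters, scaling, the probe set rule, the minimum difference, the replicate block and each array left out.

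The members and the 23 lists were chosen with earlier results of these data known. Genes were named by 4 rules: the 12 widest gaps on each side, the 12 widest shared margins, the 12 list members with the highest minimum, and up to 6 called and 4 other members of each list. Predicted and RIKEN-type symbols, antigen receptor segments, the Klra family and haemoglobin genes were passed over in the first 2 rules. Genes that differed between the arrays of a type, the 7 above all other types, further list members and the printed promoters were chosen after their values were seen. In simulated data over 9810 genes the fit recovered 73% of differences of 2 and 94% of differences of 3 between NK cells and monocytes, and 61% and 90% of shared genes raised by as much. It made 4 false calls at each difference between NK cells and monocytes. The pooled standard deviation was 0.39 in the NK arrays and 0.77 in the monocyte arrays, while the fit used 1 spread per gene for all types. Only 100 genes were changed in each simulation, far fewer than were called between NK cells and monocytes, and the adjustment depends on that share. The recovery rates and false calls are therefore a rough guide only. Of the 140 further probe sets of called genes named in the text, 58 lay below 5, and the others ran in the called direction.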

Additional observations from a re-analysis of the deposited data

How the results depend on the processing

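The count of genes that were higher in NK cells lay between 2496 (fit of the 4 arrays alone) and 3714 (no minimum difference) under all other alternatives, and at 2051 with a minimum difference of 2. The count that were lower lay between 1196 and 1835, and at 980 with that minimum difference. Genes at 10 or above in all 4 arrays numbered 927 with a limit of 11 and 455 when the probe sets of a gene were averaged, against 1512. The 72 shared genes became 34 to 83 when single arrays of the 5 types were left out, 50 with a minimum difference of 2, 53 without the filter on low values, and 42 without naive CD4 array 1 and naive CD8 array 1, an alternative chosen after seeing the data. The sign of the difference turned for Cfp (-2.31 with probe sets averaged and -4.945 with the most variable probe set), for Ifnar2 (-1.27 with the most variable probe set) and for Egr3 (-1.93 without monocyte array 2 and 5.59 without monocyte array 1). Over 45 pairs of types the same-numbered arrays' deviations correlated between -0.256 and 0.213, with 9 over 0.1. These values do not settle whether the replicate numbers pair arrays of some types. Eif2s3y was high in array 1 of both naive T cell groups (12.84 for CD4 and 11.76 for CD8) and low in array 2 (3.23 and 3.36). In the activated T cell groups it was high in both arrays (10.73 to 12.51). With the replicate block 3406 genes were higher in NK cells, 1506 lower and 67 shared. Of 23 list medians none turned its sign, but some counts moved. In the 4-array fit 3 migration receptors were higher instead of 5 and 2 adhesion genes lower instead of 4. Lower members of the MHC class II presentation list, costimulatory ligands included, numbered 1 to 4 over the alternatives, against 3. Differences under 1 were left out by the call rule, and with no minimum difference 3714 genes were higher and 1696 lower. The 2 arrays a type limit the precision, and values under 5 give only a bound on the true difference.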

Other observations

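Some markers of other blood cell types were high in single genes. Of 8 platelet markers with a probe set, 0 and 0 lay above 5 in the NK arrays, against 1 and 1 in the monocyte arrays, where Clec1b read 11.58 and 10.91 and the granulocyte arrays 10.57 and 10.78. No dendritic cell, basophil or mast cell marker exceeded 5 in any of the 4. Of 9 B cell markers 4 and 3 exceeded 5 in the NK arrays, against 3 and 4 in the monocyte arrays, with sums of 40.9 and 36.0 in NK cells and 37.8 and 43.9 in monocytes, beside 104.8 and 101.9 in the B cell arrays. The B cell marker Ms4a1 read 7.48 and 5.26 in NK cells, against 6.32 and 8.72 in monocytes. Plasma cell markers summed to 29.9 and 26.6 in NK cells and to 27.6 and 27.4 in monocytes. Among them Xbp1, which many cell types use, read 10.18 and 10.03 in NK cells, against 12.02 and 12.10 in monocytes, and Jchain read 9.50 and 5.96 in NK cells, against 4.61 and 4.44 in monocytes. Stem and progenitor markers summed to 29.1 and 29.8 in NK cells and to 26.0 and 25.2 in monocytes. Kit was above 5 in the NK arrays (7.71 and 7.59), against 2.99 and 4.02 in the monocyte arrays.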
